A study of Rattus norvegicus with 24 samples.

Results

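Potassium channels set the resting potential of excitable cells and end their action potentials. Glomus cells, the oxygen-sensing cells of the carotid body (CB), are known to depolarize in low oxygen when potassium channels close, which lets calcium in and releases transmitter onto the afferent endings of the carotid sinus nerve. Pore-forming subunits make the path for potassium, and auxiliary subunits change how the pore opens or where it is placed. The genes described here are 8 of the 32623 genes counted: the pore-forming subunits Kcnh1, Kcnh2, Kcnt2, Kcnq1, Kcnq3 and Kcnd1, and the auxiliary subunits Kcnmb2 and Kcne3. They were chosen by symbol from the study's list of genes higher in hypertensive rats. Of 1391 rows read, 1273 paired an identifier with a symbol, and 14 of these were Kcn symbols. The Kcn genes not taken are described below, and none of them passed the strain test. Strain values therefore selected the 8 genes. The values and calls by strain below describe the genes that were selected and are no test of them. The contrast of the left with the right CB was not used in the choice.

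Polyadenylated RNA was sequenced from whole CBs of male rats aged 12 to 14 weeks, 6 normotensive Wistar Kyoto rats (WKY/NHsd) and 6 spontaneously hypertensive rats (SHR/NHsd). Both CBs of each rat gave a library, 24 in all, and no rat received a treatment named in the labels. SHR is an inbred strain, so blood pressure and genetic background cannot be told apart in these groups. Rats are called by the numbers in the labels. The organs were taken out under a dissecting microscope after perfusion with cold saline. In bulk tissue, fewer cells of a type and less RNA per cell cannot be told apart.

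The libraries held 9198341 to 13655419 counts (median 9818602.5). The library labelled right CB of SHR rat 34 stood apart, and it was left out of the main set of 23 libraries. Dbh, Chga and Chgb are called glomus markers here, but they mark other catecholamine cells too. Levels are in CPM, read counts scaled to a common library size with TMM factors. The summed level of the 3 was 61.1 CPM in that library, against 1117 to 2007 in the other 11 SHR libraries. That library held none of the 3 at 0. Its level of Tg, which encodes the thyroid hormone precursor thyroglobulin, was 7985 CPM against 0.460 to 219. Among the main libraries Tg was highest, at 219 CPM, in the right CB of SHR rat 30, and reached 10.7 CPM at most in WKY. Strain calls with this library included are given as well, and so are side differences of Kcnq3, Kcnd1, Kcnh1 and Kcnt2.

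The promoters shown here are those of Kcnh1, Kcnt2, Kcnmb2 and Kcne3, the subunits with the highest fitted strain differences among the 8. RefSeq promoters on GRCr8 matched these 4 of the 8 subunits. Each sequence is the 250 bases before the annotated start, 5′ to 3′ on the plus strand. Capitals mark a GC box (GGGCGG, or CCGCCC where it lies on the minus strand), and in Kcnmb2 the core of a hypoxia response element (ACGTG or GCGTG, here as CACGC on the minus strand). The windows were chr13:106252966-106253215 for Kcnh1, chr13:54215057-54215306 for Kcnt2, chr2:116599049-116599298 for Kcnmb2 and chr1:163935785-163936034 for Kcne3.
Kcnh1: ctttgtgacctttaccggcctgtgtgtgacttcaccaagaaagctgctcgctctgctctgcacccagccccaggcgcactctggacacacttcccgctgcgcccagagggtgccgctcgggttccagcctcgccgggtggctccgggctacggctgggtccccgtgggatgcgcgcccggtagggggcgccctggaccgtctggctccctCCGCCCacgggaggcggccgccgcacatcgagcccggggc
Kcnt2: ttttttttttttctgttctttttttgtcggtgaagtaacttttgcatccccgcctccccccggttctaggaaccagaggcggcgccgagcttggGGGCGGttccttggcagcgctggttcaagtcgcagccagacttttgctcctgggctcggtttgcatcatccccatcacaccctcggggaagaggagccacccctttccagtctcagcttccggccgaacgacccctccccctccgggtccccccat
Kcnmb2: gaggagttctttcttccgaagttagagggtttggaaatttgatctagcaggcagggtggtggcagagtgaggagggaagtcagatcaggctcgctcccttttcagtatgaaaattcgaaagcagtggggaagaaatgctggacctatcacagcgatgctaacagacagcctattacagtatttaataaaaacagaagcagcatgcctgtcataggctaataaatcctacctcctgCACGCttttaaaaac
Kcne3: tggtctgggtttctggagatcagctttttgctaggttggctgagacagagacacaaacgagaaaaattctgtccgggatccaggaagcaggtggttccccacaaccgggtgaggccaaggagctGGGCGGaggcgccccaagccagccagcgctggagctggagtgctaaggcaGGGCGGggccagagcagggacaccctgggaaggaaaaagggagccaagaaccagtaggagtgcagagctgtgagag

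The Kcnh1 window was the richest in G and C of the 4, at 71.6% with 24 CpG dinucleotides, and 93.6% of 33469 RefSeq promoters had a lower share. Kcnt2 held 59.2% and 15 CpG, and Kcne3 held 59.6% and 7 CpG. The Kcnmb2 window held 44.8% and 5 CpG, against medians of 51.2% and 5 over all promoters. Both strands were searched. A GC box occurred 1 time in Kcnh1, 1 time in Kcnt2, 2 times in Kcne3 and 0 times in Kcnmb2, and 30.5% of all promoters held one. The hypoxia core occurred in Kcnmb2 alone of the 4, starting 15 bases before the start, and in 36.7% of all promoters. A TATA box (TATAAA) occurred in 0 of the 4 and in 12.9% of all promoters. The motifs do not overlap in these windows. Such matches are letters of the reference strain, which is neither WKY nor SHR.

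All 8 subunits were higher in SHR in the fit across 23 libraries with side as a covariate, and 8 of 8 passed an adjusted p of 0.05, a count that the choice of members fixes. Of the 14243 genes tested, 10.3% were called higher in SHR. The median log2 fold change was 0.70 over the 8 subunits and 0.007 over all genes tested, a gap that the choice of members also brings about. Within the list, fitted differences ran from 0.28 for Kcnh2 to 1.24 for Kcnmb2. Levels below are CPM averaged over both CBs of a rat (left CB only for SHR rat 34). They are given as lowest, median and highest rat of 6 and then as mean ± SD. Fold changes and their SE come from the fit, which takes both CBs of a rat as separate samples. These SE therefore rest on 23 libraries and not on 6 and 6 rats.

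Kcnh1 encodes an ether-a-go-go (Eag) channel, a voltage-gated channel known mainly from brain. It stood at 0.494, 1.12 and 1.51 CPM in WKY and at 1.06, 2.69 and 3.03 CPM in SHR. Means were 1.04 ± 0.391 and 2.27 ± 0.881 (SD, n = 6 and 6), and the log2 fold change was 1.07 (SE 0.298). The groups overlapped: 4 of 6 SHR rats lay above the highest WKY rat, whereas SHR rats 30 and 31 stood at 1.27 and 1.06 CPM, among the WKY rats. These values rest on 2 to 22 reads per WKY library and 7 to 38 per SHR library.

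Kcnh2 encodes the Erg channel, known for repolarizing the heart action potential. It stood at 69.3, 88.5 and 98.0 CPM in WKY and at 89.9, 103 and 129 CPM in SHR. Means were 86.5 ± 11.01 and 105 ± 13.1 (SD, n = 6 and 6), with a log2 fold change of 0.28 (SE 0.0861). In SHR, 4 of 6 rats exceeded every WKY rat. Kcnh2 had 650 to 1559 reads per library, the deepest coverage among the 8, and the smallest fitted difference of the list.

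Kcnt2 encodes Slick, a channel opened by intracellular sodium. Rats of WKY stood at 1.996, 3.45 and 4.41 CPM, and rats of SHR at 5.20, 6.05 and 6.62 CPM. The mean was 3.43 ± 0.908 in WKY and 6.00 ± 0.516 in SHR (SD, n = 6 and 6), and the log2 fold change was 0.78 (SE 0.154). Kcnt2 alone of the 8 had all 6 SHR rats above all 6 WKY rats, which held for 3.52% of the 14243 genes tested. By library, 9 of 11 from SHR lay above the highest of 12 from WKY.

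Kcnd1 encodes an A-type channel, which inactivates quickly after it opens. Rats stood at 10.995, 12.4 and 15.3 CPM in WKY and at 14.4, 17.1 and 20.4 CPM in SHR. Means were 12.7 ± 1.51 and 17.2 ± 1.95 (SD, n = 6 and 6), and the log2 fold change was 0.43 (SE 0.107). Only SHR rat 37, at 14.4 CPM, lay within the WKY range, so that 5 of 6 SHR rats were above it.

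Kcnq1 and Kcnq3 belong to the KCNQ family of slowly activating channels. Kcnq1 is known from heart and epithelia, and stood at 1.48, 2.17 and 2.61 CPM in WKY and at 1.57, 3.03 and 5.02 CPM in SHR. Its means were 2.11 ± 0.480 and 3.21 ± 1.12 (SD, n = 6 and 6), with a log2 fold change of 0.67 (SE 0.218). SHR rat 34 held the lowest SHR value and SHR rat 36 the highest, and 5 of 6 SHR rats exceeded every WKY rat. An antisense RNA overlaps the Kcnq1 gene, and the strand setting of the counting is not given in the sources used here, so Kcnq1 values are uncertain.

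Kcnq3 encodes a subunit of the M-current, which damps repeated firing in neurons. It stood at 14.1, 22.9 and 29.97 CPM in WKY and at 24.3, 31.5 and 41.98 CPM in SHR. The means were 22.7 ± 5.07 and 31.7 ± 6.74 (SD, n = 6 and 6), and the log2 fold change was 0.46 (SE 0.159). The groups overlapped, with 3 of 6 SHR rats above the highest WKY rat.

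Kcnmb2 encodes a beta subunit of the large-conductance calcium-activated (BK) channel that makes the channel inactivate. It stood at 0.445, 0.753 and 0.884 CPM in WKY and at 0.719, 1.90 and 2.46 CPM in SHR. Means were 0.715 ± 0.160 and 1.71 ± 0.716 (SD, n = 6 and 6), with a log2 fold change of 1.24 (SE 0.325). SHR rat 31, at 0.719 CPM, was within the WKY range, and SHR rat 30, at 0.970 CPM, was just above it. Both rats also held the lowest SHR values of Kcnh1. Kcnmb2 had 2 to 13 reads per WKY library and 4 to 33 per SHR library.

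Kcne3 encodes a single-pass subunit that keeps Kcnq1 channels open at rest. Its rats stood at 1.25, 1.62 and 2.26 CPM in WKY and at 1.35, 2.84 and 3.75 CPM in SHR. Means were 1.67 ± 0.340 and 2.68 ± 1.02 (SD, n = 6 and 6), and the log2 fold change was 0.74 (SE 0.239). SHR rats 34 and 37, at 1.35 and 1.60 CPM, lay within the WKY range, and the other 4 SHR rats lay above it. The spread over SHR rats was wider than over WKY rats for Kcne3, Kcnmb2 and Kcnq1, with coefficients of variation of 38.1%, 41.8% and 34.8% against 20.3%, 22.3% and 22.8%. In Kcnt2 it was narrower, at 8.60% against 26.5%. The wider spread of Kcne3, Kcnmb2 and Kcnq1 in SHR depended on side. In left CBs alone it was 56.0%, 56.7% and 58.5% in SHR against 33.1%, 46.8% and 37.6% in WKY. In right CBs alone SHR was the narrower, at 18.2%, 50.2% and 7.89% against 38.7%, 60.4% and 28.8%. SHR rat 34 counts by its left CB alone, and held the lowest SHR level of Kcne3 (12 reads) and Kcnq1 (14 reads).

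**Figure D1:**
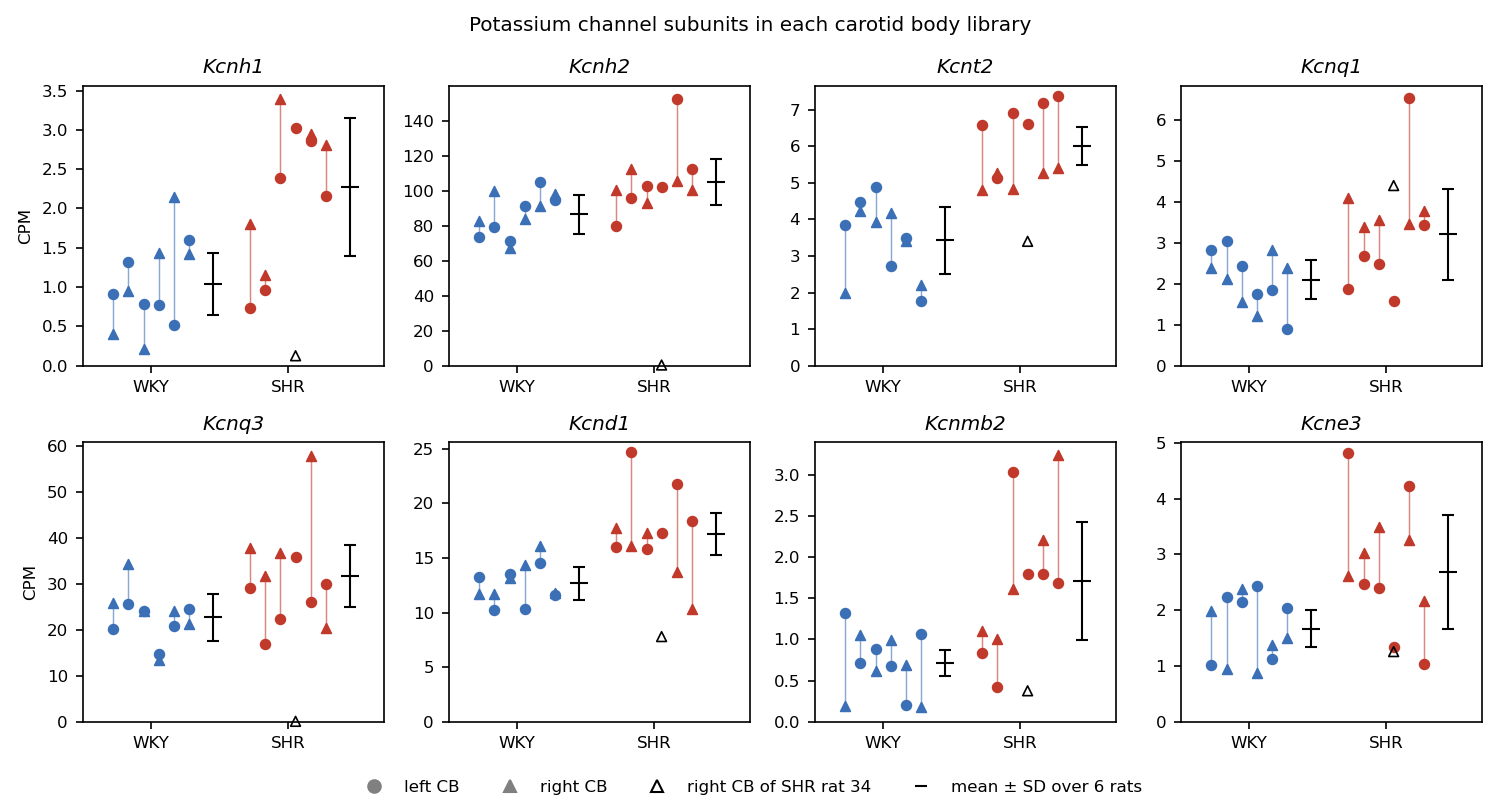
CPM (y axis, linear from 0) of the 8 potassium channel subunits in each carotid body library of WKY (blue) and SHR (red); circles are left and triangles right CBs, a line joins the CBs of a rat, and the bar is the mean ± SD over 6 rats. Kcnt2 is the subunit whose 6 SHR rats all lie above the WKY rats once sides are averaged, and the open triangle, the right CB of SHR rat 34, sits near 0 for Kcnh2 and Kcnq3.

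The count of 8 calls was not stable. With the right CB of rat 34 included, 3 of 8 passed (Kcnt2, Kcnq1 and Kcnmb2), with log2 fold changes of 0.73, 0.70 and 1.16, when 5.52% of 14259 genes were called higher. In that fit Kcnh1 stood at 0.96 (SE 0.357), Kcne3 at 0.67 (SE 0.247), Kcnd1 at 0.35 (SE 0.128), Kcnq3 at 0.33 (SE 0.316) and Kcnh2 at 0.15 (SE 0.313), and none of these passed. Without SHR rat 36, 4 passed (Kcnh1, Kcnt2, Kcnd1 and Kcnmb2), when 1430 of 14262 genes were called higher. Without WKY rat 32 or WKY rat 34, 5 passed, when 7.95% and 8.68% of genes did. Without SHR rat 30, 6 passed, when 9.24% of genes did, and the log2 fold changes ran from 0.32 for Kcnh2 to 1.36 for Kcnmb2. Kcnh1, Kcnt2, Kcnd1 and Kcnmb2 passed in 12 of 12 fits that left out a rat. Kcnh2 passed in 9, and did not without WKY 32, WKY 34 or SHR 36 (log2 fold change 0.25, 0.22 and 0.21). Kcnq1 passed in 7, and did not without WKY 34, WKY 36, WKY 41, SHR 36 or SHR 37 (0.50 to 0.66). Kcne3 passed in 6, and did not without WKY 32, WKY 37, SHR 30, SHR 31, SHR 33 or SHR 36 (0.62 to 0.74). Kcnq3 passed in 3, those without WKY 33, SHR 31 or SHR 37. All fits had each subunit higher in SHR. Treating both CBs of a rat as 1 sample by summing their counts left 5 passing, without Kcnq1, Kcnq3 and Kcne3, when 6.93% of genes did.

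Other subunits with a symbol came from the same list of genes higher in SHR. Of 7, 1 passed the test higher and 0 lower: Lrrc55, a gamma subunit of the BK channel, with a log2 fold change of 0.38 (SE 0.0943). Over all genes tested, 10.3% were called higher, which is no baseline for genes from that list. With the right CB of rat 34 included, 0 of the 6 that were tested passed, and Lrrc55 stood at 0.25 (SE 0.259). In the main set the other BK auxiliary subunit, Kcnmb1, known from smooth muscle, stood at 0.31 (SE 0.186). The Shaker-type pores Kcna3 and Kcna4 stood at 0.59 (SE 0.246) and 0.75 (SE 0.321), Kcnab3, a cytoplasmic beta subunit of such channels, at 0.49 (SE 0.205), the fast delayed rectifier Kcnc1 at 0.30 (SE 0.237) and the tandem-pore subunit Kcnk15 at 0.33 (SE 0.132). The threshold fell between subunits of like size. Just inside it was Kcnq3, with an edgeR adjusted p of 0.0425, and just outside was Kcnk15, with 0.0743.

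**Figure D2:**
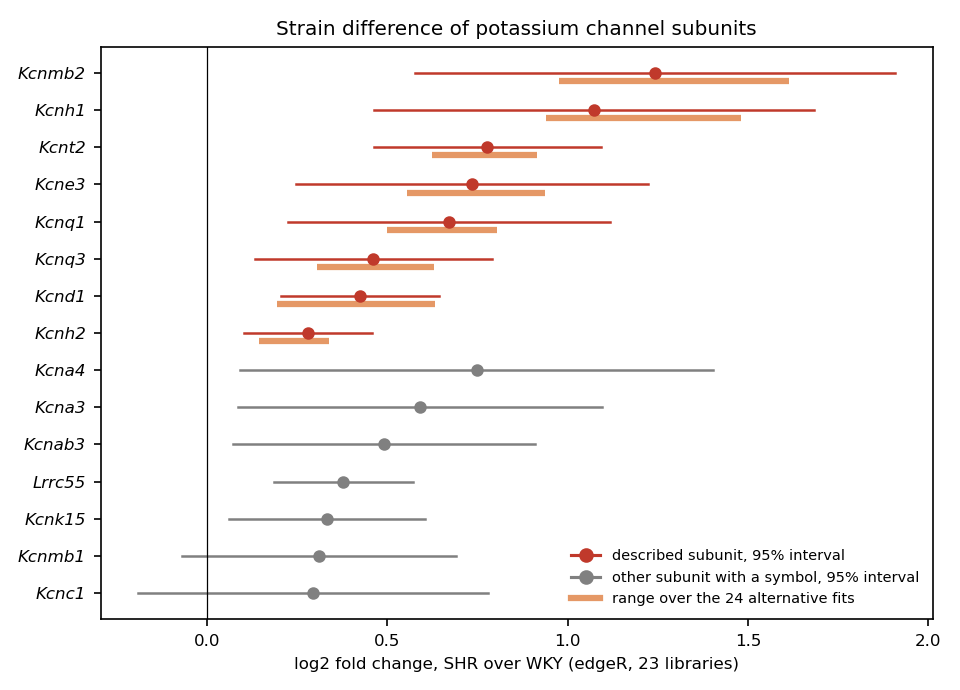
Fitted log2 fold change of SHR over WKY (x axis) for the 8 described subunits (red) and the 7 other subunits (grey), with 95% intervals; orange bars give the lowest and highest value over 24 alternative fits. Every estimate lies above 0, and the interval of Kcna4, which did not pass, covers that of Kcnt2.

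Markers of several cell types were higher in SHR along with the subunits, on lists that could hold only genes from the same side of the study's table. That choice largely fixes how many markers passed in the main set. Over all genes tested, 10.3% were called higher, a share that is no baseline for genes drawn from that side. The 3 glomus markers summed to 1164 ± 120 CPM in WKY and 1543 ± 241 in SHR (SD, n = 6 and 6), with rats from 974 to 1288 and from 1242 to 1816, and 3 of 3 passed. The 4 neuronal markers Prph, Nefh, Chrna3 and Scn9a summed to 290 ± 24.4 and 467 ± 29.1 CPM, with rats from 265 to 323 and from 423 to 497, and 4 of 4 passed. Endothelial markers (4 of 4), macrophage markers (6 of 6), mast cell markers (2 of 2), skeletal muscle markers (2 of 2) and Tg (1 of 1) passed too. Of the smooth muscle markers 0 of 3 passed, of the lymphocyte markers 1 of 3 and of the adipocyte markers 1 of 3. The summed endothelial level ran from 401 to 514 CPM in WKY rats and from 534 to 594 in SHR rats, and the summed macrophage level from 80.4 to 123 and from 132 to 197. With the right CB of rat 34 included, when 5.52% of genes were called higher, 0 of 3 glomus, 1 of 4 neuronal, 1 of 4 endothelial, 5 of 6 macrophage, 2 of 2 mast cell, 1 of 2 skeletal muscle, 0 of 3 smooth muscle, 0 of 3 lymphocyte and 1 of 3 adipocyte markers passed, and Tg did not. The part of these cells in the differences of the subunits was not tested.

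The comparison of sides was independent of the choice of genes. Of the 8 subunits, 0 passed for right against left averaged over strains (0% of the 14243 genes tested), 0 in WKY (0% of genes), 0 in SHR (0% of genes), and 0 for the difference between strains in the side effect (0% of genes), by edgeR's quasi-likelihood test with a term for each rat. At an unadjusted p under 0.05 there were 1, 0, 2 and 1 of the 8, and 1096, 295, 1458 and 625 of all genes. DESeq2 called 3, 0, 16 and 0 genes and limma-voom 0 in each, with 0 of the 8 in any. The median right-minus-left log2 difference was -0.03 over the 8 subunits and -0.004 over all genes.

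Kcnq3 had the largest average side difference of the 8. In SHR its right CB was higher in 4 of 5 rats with both libraries. The left CBs stood at 29.1, 16.9, 22.4, 26.1 and 29.95 CPM in SHR rats 30, 31, 33, 36 and 37, and the right CBs at 37.8, 31.8, 36.6, 57.8 and 20.4 CPM in the same order. SHR rat 37 alone went the other way. In WKY the right CB was higher in 3 of 6 rats, with means of 21.6 CPM on the left and 23.8 CPM on the right. The right-minus-left log2 difference was 0.32 averaged over strains (95% interval 0.05 to 0.59, edgeR adjusted p = 0.574), 0.53 in SHR (0.14 to 0.92, adjusted p = 0.377) and 0.11 in WKY (-0.25 to 0.48). Without SHR rat 37 the SHR difference was 0.79 and passed (edgeR adjusted p = 0.0235), when 49 of 14232 genes did. The difference between strains in the side effect was 0.41 (-0.12 to 0.95, adjusted p = 0.979). With the right CB of rat 34 included, which had 1 read of Kcnq3, the Kcnq3 difference was 0.05 averaged over strains and turned to -0.02 in SHR, and the difference between strains turned to -0.13. None of these passed.

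Kcnd1 leaned the other way in SHR. Left CBs stood at 16.0, 24.7, 15.8, 21.8 and 18.4 CPM in SHR rats 30, 31, 33, 36 and 37, and right CBs at 17.7, 16.1, 17.2, 13.7 and 10.4 CPM. Rats 31, 36 and 37 were lower on the right and rats 30 and 33 higher. The log2 difference was -0.37 in SHR (-0.67 to -0.06, edgeR adjusted p = 0.407) and 0.10 in WKY (-0.19 to 0.39). The strains differed in this by -0.47 (-0.89 to -0.05, adjusted p = 0.979), so the adjusted test was not passed. With the right CB of rat 34 included, the SHR difference was -0.48 and that between strains -0.58, and neither passed. The strain difference of Kcnd1 was 0.63 on the log2 scale in left CBs alone and 0.20 in right CBs alone.

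Kcnh1 was higher on the right in 5 of 5 SHR rats and in 2 of 6 WKY rats, with log2 differences of 0.46 (-0.34 to 1.25) and 0.03 (-0.83 to 0.90). In SHR rat 34, whose pair is not among these 5, the left CB held 27 reads of Kcnh1 and the right CB 1 read, and with that library the SHR difference was -0.002. Kcnt2 was lower on the right in 4 of 5 SHR rats and in 4 of 6 WKY rats, at -0.37 (-0.80 to 0.07) and -0.08 (-0.51 to 0.36). With the right CB of rat 34 the SHR difference of Kcnt2 was -0.45. The precision differed widely over the list. The interval of the average side difference was narrowest for Kcnh2, from -0.16 to 0.13, and widest for Kcnmb2, from -0.74 to 0.64, so that differences of that size between sides could not be told from 0 in Kcnmb2. Both intervals leave out the right CB of SHR rat 34, which had 3 reads of Kcnh2.

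**Figure D3:**
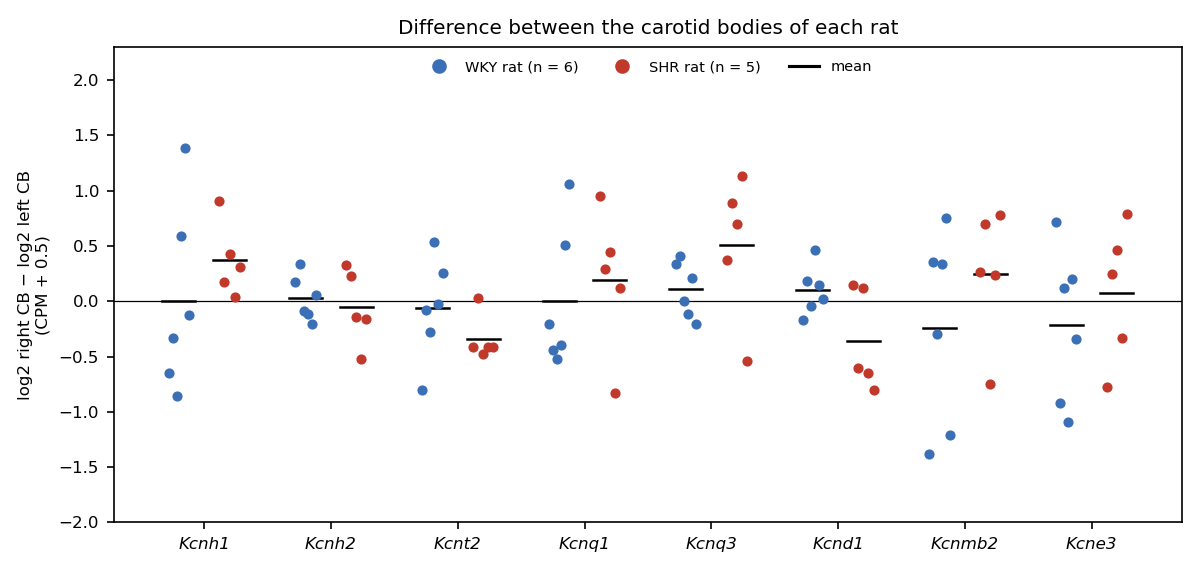
Right-minus-left difference in log2(CPM + 0.5) (y axis) for each rat with both libraries, 6 WKY (blue) and 5 SHR (red), for each subunit; black bars are means. Points of Kcnh2 run from -0.52 to 0.34, 4 of 5 SHR rats lie above 0 for Kcnq3, and 5 of 5 lie above 0 for Kcnh1.

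The subunits stood at very different shares of their SHR level in the right CB of SHR rat 34. Kcnh2 had 3 reads there (0.378 CPM against 79.6 to 152 in the other 11 SHR libraries), which was 0.371% of their median (95% exact Poisson interval of the count 0.0765% to 1.08%). Kcnq3 had 1 read, 0.420% of the median (0.0106% to 2.34%). The lowest level of Kcnh2 in any other library was 67.2 CPM, and that of Kcnq3 was 13.5 CPM. Kcnh1 had 1 read (5.26% of the median, 0.133% to 29.3%) and Kcnmb2 3 reads (22.5%, 4.63% to 65.6%).

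The other 4 subunits had 10 reads or more in that library, and the intervals of Kcnd1, Kcnt2 and Kcne3 overlap that of Kcnmb2. Kcnd1 had 62 reads (7.81 CPM, 45.3% of the median, 34.7% to 58.0%) and Kcnt2 27 reads (3.40 CPM, 63.0%, 41.5% to 91.6%), both under the lowest of the other SHR libraries. Kcne3 had 10 reads (1.26 CPM, 48.3%, 23.2% to 88.8%), within their range. Kcnq1 had 35 reads (4.41 CPM, 128%, 89.1% to 178%), within the SHR range and above all 12 WKY libraries, whose highest was 3.05 CPM. In all, 6 of 8 subunits were below each of the other SHR libraries, as were 33.3% of the genes tested. The 8 were chosen as higher in SHR without that library, so this share is no baseline for them. Kcnmb2 was only just below, at 0.378 CPM against 0.428 CPM in the lowest of the others. These intervals cover counting error only.

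In the same library the glomus markers stood at 2.14 CPM for Dbh, 55.0 for Chga and 3.90 for Chgb, which was 5.90%, 6.91% and 0.585% of the median of the other SHR libraries. The neuronal markers ranged from 2.77% of that median for Chrna3 to 35.5% for Scn9a. The 4 endothelial markers kept 20.1% to 74.7%, and the 3 smooth muscle markers 28.4% to 41.4%. Of the 3 adipocyte markers, Fabp4 stood at 391.9 CPM against 2.54 to 58.2, whereas Adipoq at 6.42 CPM and Cfd at 1.13 CPM were within the range of the other SHR libraries. The part of these cells in the levels of the subunits was not tested.

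**Figure D4:**
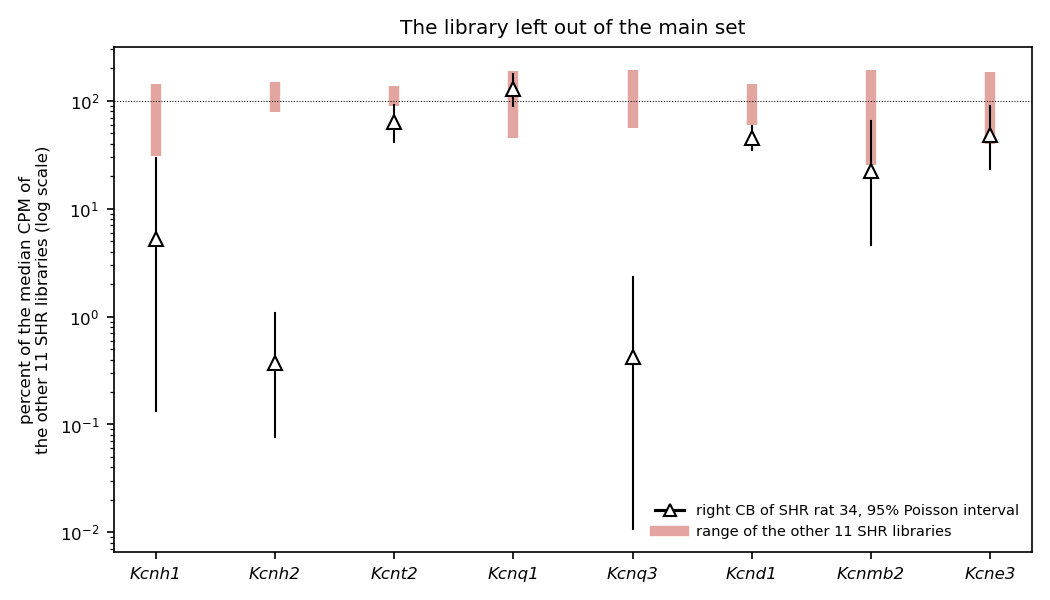
Level of each subunit in the right CB of SHR rat 34 (open triangles with 95% Poisson intervals of the count) as a percent of the median of the other 11 SHR libraries, on a log axis; red bars span the other libraries. Kcnh2 and Kcnq3 lie under 1% of the median, and Kcnq1 lies within the range of the other libraries.

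Variation among rats of a strain was compared for Kcnh2, Kcnq3 and Kcnd1, which had a mean of at least 100 reads per library. With 12 rats and no test, values of r near 0 do not exclude a shared pattern. Deviations from the strain mean of log2 CPM, over 12 rats, correlated at r = 0.07 between Kcnh2 and Kcnq3, 0.009 between Kcnh2 and Kcnd1 and -0.05 between Kcnq3 and Kcnd1. With the summed glomus markers, r was 0.69 for Kcnh2 (0.88 over the WKY rats and 0.59 over the SHR rats), 0.32 for Kcnq3 (0.33 in each strain) and 0.37 for Kcnd1, where the strains went opposite ways (-0.18 over the WKY rats and 0.74 over the SHR rats). The points of each pair come from the same libraries and share their depth and scaling.

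Over 1265 genes with a symbol, the deviations most like those of Kcnh2 were of Lamc3 (r = 0.94), a laminin chain, Hs3st2 (0.91), a heparan sulfate sulfotransferase, and Cyp4b1 (0.89), a cytochrome P450. For Kcnq3 they were of Ryr2 (0.93), an intracellular calcium release channel, Tnr (0.89), a matrix glycoprotein, and Slc4a8 (0.86), a bicarbonate transporter. For Kcnd1 they were of Fam20a (0.83), Mir3074 (0.81) and Serf1 (0.80). The 3 lists shared 0 genes. These are the highest of many values and are given as a description over 12 rats.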

How the data were processed

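Polyadenylated RNA of the 24 CB libraries was prepared with a stranded kit. Raw read counts for each Ensembl gene were deposited by the authors, made with STAR and featureCounts. Their versions, the build and the strand setting are not given in the sources used here. The members and gene lists were chosen with earlier results of these data known. Every member, the other potassium channel subunits and the cell type markers with a readable symbol were named, and, for members with at least 100 reads, the 3 most alike genes. Symbols came from the part of the study's table that could be read, all higher in SHR; its fold changes and p-values were not used.

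Counts were tested in R 4.3.3 with edgeR 4.0.16 (TMM, robust quasi-likelihood F-test) over the 14243 genes whose mean normalized count exceeded 10, with Benjamini-Hochberg adjustment at 0.05. Side was a covariate for strain, and a term per rat was fitted for side. DESeq2 1.42.0 and limma 3.58.1 (voom, rat as a random block) were alternatives, with other scaling and filters, each side alone, all 24 libraries and each rat left out. The right CB of SHR rat 34 is not in the study's table and was left out of the main set. Tests are two-sided, and were also run on simulated counts drawn independently for each library. Such counts cannot show whether treating both CBs of a rat as separate samples gives too many strain calls. Left and right CBs of a rat pair by animal: over 11 rats their deviations correlated at a median of 0.115 (-0.0352 to 0.286). The strain fit treats them as separate samples. Plots were made with matplotlib 3.10.9. Of 253 pairs of libraries none was alike within sampling noise (lowest chi-square per degree of freedom 4.97).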

Additional observations from a re-analysis of the deposited data

Results flagged for a closer look

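Kcnq1 in the right CB of SHR rat 34, a library outside the main comparisons, stood at 4.41 CPM (35 reads), above each of the 12 WKY libraries (0.887 to 3.05 CPM). Over the 8 subunits and both strains, 16 groups of 6 rats were searched for a rat far from the others, and 0 held one; chance alone flags about 1 in 20 such groups.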

How the results depend on the processing

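Of 192 strain values of the 8 subunits under 24 alternatives, 58 lost the call, and 0 turned the direction; the cause was not tested. From 8 in the fit reported, the number of subunits past the threshold was 5 with limma-voom, 3 with all 24 libraries, 5 with counts summed per rat, 2 in left CBs alone and 0 in right CBs alone. The share of all genes called higher was 8.24%, 5.52%, 6.93%, 4.73% and 3.0% in these fits, against 10.3%. Without one rat, 4 to 8 subunits passed, when 7.95% to 10.3% of genes were called higher. Subunits whose rats did not overlap numbered 1 in the main set, where 3.52% of genes tested had all SHR rats higher. They numbered 2 with all 24 libraries and 1 to 2 without one rat, and the shares of genes in these settings were not counted. With all 24 libraries Kcnq1 was added, which in SHR rat 34 stood at 4.41 CPM in the right CB and 1.57 CPM in the left. For sides in SHR, 0 to 1 passed without one rat, and 0 under the other alternatives. The 1 was Kcnq3 without SHR rat 37, when 49 of 14232 genes passed. No side value passed with all 24 libraries, but those of Kcnq3 and Kcnh1 in SHR turned to -0.02 and -0.002, from 0.53 and 0.46.

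WKY and SHR each have rats numbered 33, 34, 36 and 37, which are different animals. Correlations of their deviations ran from -0.243 to 0.062, so the numbers were not taken as pairs. With a replicate block over these numbers 4 subunits passed, when 5.71% of genes were called higher. Without the block, in the same libraries (added after the data were seen), 4 passed, when 5.76% of genes were called higher. Without the block of rats, 0 subunits and 0 of 14243 genes passed for sides. Low depth limits Kcnh1 and Kcnmb2, with as few as 2 reads in a library.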
